A study of Mus musculus with 2 samples.

Results

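Genes for enzymes that add methyl groups to histone lysines or to protein arginines, and for enzymes that remove them from lysines, were compared between 2 libraries of mouse embryonic stem cells, 1 labelled Pc4-OE and 1 labelled control. The members were the rows of the deposited read count table with symbols of the Kdm, Kmt2, Setd, Ehmt, Suv39h, Suv420h, Nsd1, Whsc1, Dot1l, Ash1l, Prmt, Carm1 and Smyd families, without Kdm5c, Kdm5d and Kdm6a. The rule found 56 genes in a table of 24061 rows, and 54 of them had at least 20 counts summed over both libraries, as did 14213 genes of the table. The excluded pair was Smyd1, a muscle enzyme, with 4 counts in the library labelled Pc4-OE against 5 in the library labelled control, and Kdm4d, with 0 Pc4-OE and 1 control count. A count of 0 allows up to 3 counts in a library, which is 0.290 CPM (counts scaled by library size) in the library labelled Pc4-OE. The least counted gene above the minimum, Kdm8, had 63 Pc4-OE and 70 control counts.

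The Pc4-OE label names cells that overexpress the coactivator Pc4, a product of Sub1 that binds single-stranded DNA, at passages 24 to 37, and the control label names cells at passages 17 to 23. Both were C57BL/6 embryonic stem cells re-plated on mouse embryonic fibroblast feeder cells in medium with 20% serum replacement and 1000 U/ml of leukaemia inhibitory factor. The overexpressing lines were made with a lentivirus that also carries the yellow fluorescent protein Venus, and colonies were picked by their fluorescence. The design text counts 3 such lines and the labels do not say which of them gave the library, so passage, line and group cannot be told apart.

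The library labelled Pc4-OE held 10194783 counts and the library labelled control 10571463. Sub1 went against the label, with 2432 counts in the library labelled Pc4-OE against 5522 in the library labelled control (2.26-fold lower, interval 2.15 to 2.37), so directions here follow the labels only. All 10 stem cell markers examined were detected in both libraries, with summed levels of 4876 CPM in the library labelled Pc4-OE and 6147 CPM in the library labelled control, and a median log2 ratio of -0.13. Of these 10, Lin28a was called lower, with 1531 counts in the library labelled Pc4-OE against 3110 in the library labelled control (log2 ratio -1.01), and 0 were called higher. Pou5f1, the core pluripotency factor Oct4, lay just short of a call at 5914 counts against 11373 in control (-0.93). Over the 10 markers, 5 intervals lay below 1 and 3 above it. All 16 fibroblast markers examined, which the feeder cells would carry, had a ratio above 1 and 11 were at least 2-fold higher, with summed levels of 11004 CPM in the library labelled Pc4-OE and 4209 CPM in the library labelled control. Of 16 macrophage markers, 16 had a ratio above 1 and 15 were at least 2-fold higher, with summed levels of 644.3 CPM (Pc4-OE) and 233.2 CPM (control). No marker of these lists was at 0 in either library. Among the 14213 genes with at least 20 counts, 11.8% were at least 2-fold higher and 4.02% at least 2-fold lower. Fewer cells of a type and less RNA per cell cannot be told apart in such libraries, and the part of these cell types in the values below was not tested.

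Lysine methylation marks the state of a chromatin region. Methylation of histone H3 at lysine 4 is found at promoters and enhancers, that at lysine 36 along transcribed genes, and that at lysine 9 of H3 and lysine 20 of H4 at silenced and compacted regions. Most of the lysine methyltransferases share the catalytic SET domain and take the methyl group from S-adenosylmethionine. Demethylases use either flavin (the LSD family) or iron and oxoglutarate (the JmjC family), and arginine methyltransferases act on histones and on many RNA-binding proteins. In embryonic stem cells these enzymes are known for keeping retroviruses silent, for marking poised developmental genes and for supporting self-renewal.

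Each gene was compared by its ratio of TMM-scaled CPM (trimmed mean of M values, a scaling that takes most genes as equal), Pc4-OE over control, with the exact 95% interval of its 2 counts. There was 1 library per group, so the intervals cover counting error only, no p-value is given, and no difference has a replicate check. A gene was called when its ratio was at least 2 in either direction and its interval excluded 1. Pc4-OE counts and control counts are those of the libraries so labelled, and values in parentheses after counts are the log2 ratio and, where given, its interval, unless a fold is named.

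Of the 54 genes, 4 were lower by 2-fold or more in the library labelled Pc4-OE than in the library labelled control, and 0 were higher by as much. The 4 were the demethylase gene Kdm2b and the methyltransferase genes Setd1b, Whsc1 and Kmt2c. They make up 7.41% of the family, against 4.02% of all genes measured that were lower and 11.8% that were higher. Smaller differences pointed mostly the same way: 40 of the 54 genes, 74.1%, had a ratio below 1, against 50.7% of all genes. The interval excluded 1 on the lower side for 31 genes, 57.4% of the family, and on the higher side for 7, 13.0%. Among all genes measured these shares were 33.1% and 31.2%, and among genes with at least 100 counts, as all 54 had, they were 38.0% and 32.2%. The median log2 ratio of the family was -0.20, against -0.01 for all genes measured and -0.05 for those with at least 100 counts.

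**Figure D1:**
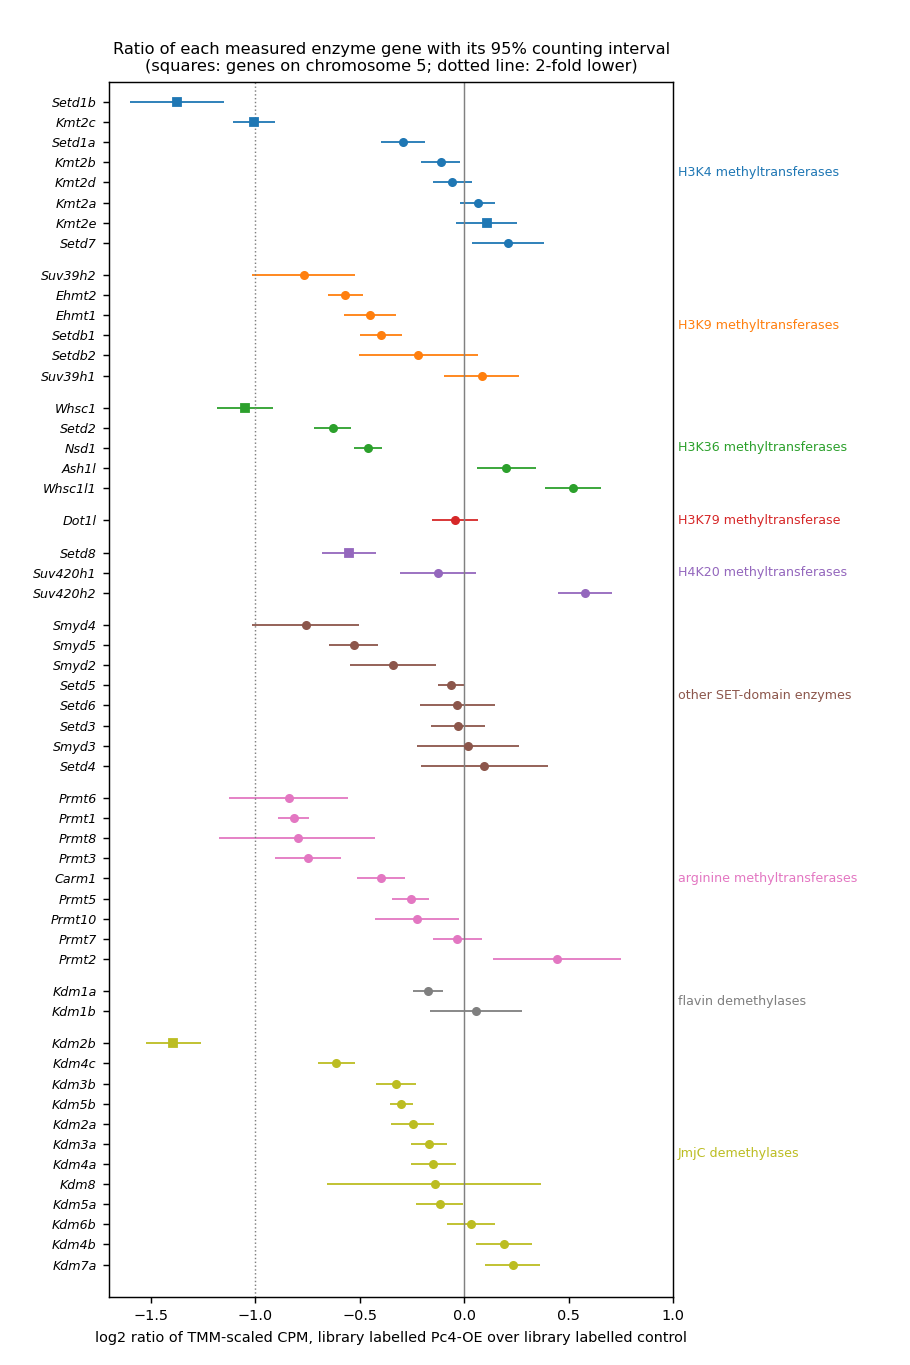
The log2 ratio of TMM-scaled CPM, Pc4-OE over control, is plotted for the 54 genes by class. Points are ratios, bars are 95% counting intervals of 1 library per group, and squares are genes on chromosome 5. The 4 genes at or beyond the dotted 2-fold line, Kdm2b, Setd1b, Whsc1 and Kmt2c, are all squares, and Suv420h2 stands highest at 0.58.

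All 4 called genes lie on chromosome 5, which carries 6 of the 54 genes. Kdm2b, which binds unmethylated CpG islands and brings a variant Polycomb complex to them, had 660 counts in the library labelled Pc4-OE against 1743 in the library labelled control, 2.62-fold lower (interval 2.40 to 2.88). Exons of 3 other annotated genes, 1 of them on the same strand, cover 16.2% of its exon length, so its counts are uncertain to that extent. Setd1b, a catalytic subunit of a COMPASS complex that methylates H3 lysine 4, had 229 Pc4-OE and 597 control counts, 2.59-fold lower (2.22 to 3.03). Whsc1, also called Nsd2, which dimethylates H3 lysine 36, had 664 Pc4-OE and 1384 control counts, 2.07-fold lower (1.89 to 2.28). Each of these 3 was well below its control count. Kmt2c, also called Mll3, which monomethylates H3 lysine 4 at enhancers, had 1213 Pc4-OE and 2451 control counts, 2.01-fold lower (1.87 to 2.15). Its log2 ratio of -1.01 lies at the threshold and became -0.96, no longer a call, when the libraries were scaled by their totals.

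The remaining 2 genes of that chromosome were not called. Setd8, also called Kmt5a, which monomethylates lysine 20 of H4, had 832 counts in the library labelled Pc4-OE against 1228 in the library labelled control (log2 ratio -0.55, interval -0.68 to -0.42). Kmt2e, also called Mll5, had 781 Pc4-OE and 730 control counts (0.11, -0.04 to 0.25). Exons of Srpk2, on the opposite strand, cover 13.3% of the exon length of Kmt2e, so its counts are uncertain to that extent. The 2 libraries thus stood apart by a ratio near 2 or more for 4 genes of the chromosome, by less for Setd8, and did not differ beyond counting error for Kmt2e. With library totals, the ratio of Kmt2e was 0.15 on the log2 scale and its interval, 0.00 to 0.30 after rounding, lay just above 1.

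Chromosome 5 as a whole was low in the library labelled Pc4-OE. Over its 754 genes averaging 5 CPM or more the median log2 ratio was -0.33, and 69.5% had a ratio below 1. That was the lowest median of the 19 autosomes and the X chromosome, the next being -0.13 on chromosome 15. Among all measured genes of chromosome 5, 71 of 897 were at least 2-fold lower (7.92%), against 501 of 13316 elsewhere (3.76%). Of the enzyme genes, 4 of 6 on chromosome 5 and 0 of 48 elsewhere were called. A ratio below 1 was found for 5 of those 6, against 66.6% of all measured genes of the chromosome. That the called genes share a chromosome was noticed after their values were seen.

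The values of the neighbouring genes were set beside those of the 6. Since the called genes were picked for low ratios, a low rank among neighbours follows largely from that choice and is given as a description. Kdm2b had the lowest ratio in its neighbourhood: none of the 40 nearest genes, with a median log2 ratio of -0.39, was below its -1.39. Setd1b, at -1.37 against a neighbourhood median of -0.46, had 1 of 40 below it, which was Kdm2b, the 2 gene bodies lying 152769 bases apart. Whsc1, at -1.05 against -0.50, had 3 of 40 below it, and Kmt2c, at -1.01 against -0.36, had 4 of 40. Setd8 stood within its neighbourhood, with 16 of 40 genes below it, and Kmt2e above most of its own, with 31 of 40 below it. After each gene's ratio was set relative to the chromosome median, Kdm2b (-1.07) and Setd1b (-1.05) were still at least 2-fold lower, while Whsc1 (-0.73) and Kmt2c (-0.68) were not. Relative to the 40 nearest genes, an alternative chosen after seeing the data, only Kdm2b (-1.01) was a call among the 54, with Setd1b at -0.92.

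**Figure D2:**
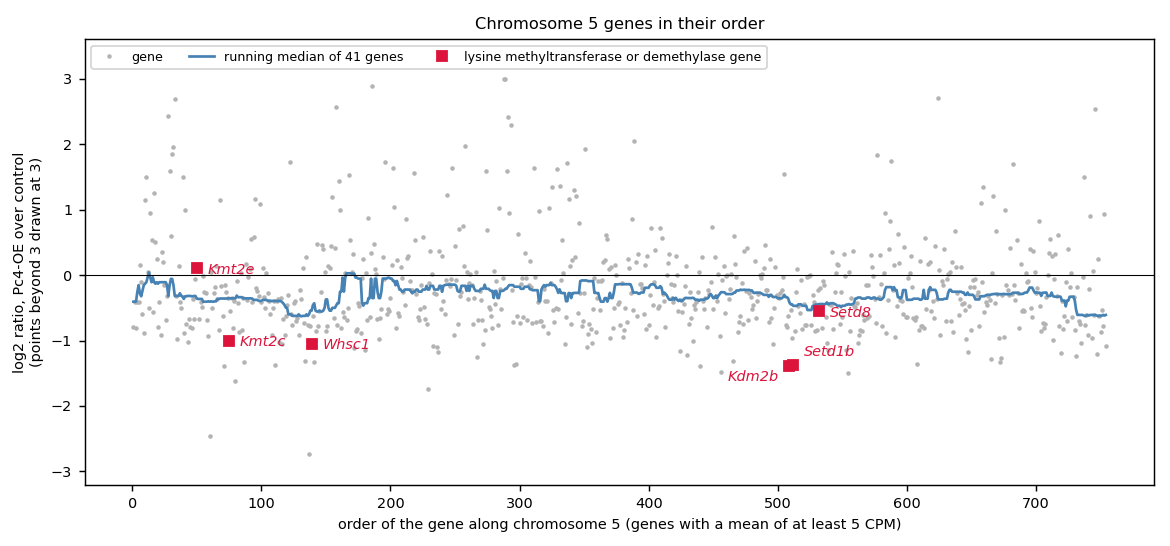
Log2 ratios, Pc4-OE over control, of the 754 chromosome 5 genes averaging 5 CPM or more are plotted in their order along the chromosome, with a running median of 41 genes. The enzyme genes are red squares. Kdm2b (-1.39) and Setd1b (-1.37) stand together far below the line, Kmt2c (-1.01) and Whsc1 (-1.05) also below it, Setd8 (-0.55) near it and Kmt2e (0.11) above it.

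Upstream sequences are shown for 3 of the 6 chromosome 5 genes, Kmt2c and Kdm2b, which were called, and Setd8, which was not. Those of the called genes Setd1b and Whsc1, and of Kmt2e, were not used here. Each is the 250 bases before a transcription start in RefSeq (GRCm38.p6), with capitals at matches, on either strand, to the E-box (CACGTG), the core ETS site (CCGGAAG), the GC box of Sp1 (GGGCGG), the CCAAT box (CCAAT) and the TATA box (TATAAA). Kdm2b is known to be made as a long form and a short form that lacks the JmjC domain. The table holds 4 starts for it, and 1 outer and 1 inner one are printed, in that order, each the one of its kind with more motif matches; counts per gene do not separate them.
Kmt2c, chr5:25498784-25499033, minus strand: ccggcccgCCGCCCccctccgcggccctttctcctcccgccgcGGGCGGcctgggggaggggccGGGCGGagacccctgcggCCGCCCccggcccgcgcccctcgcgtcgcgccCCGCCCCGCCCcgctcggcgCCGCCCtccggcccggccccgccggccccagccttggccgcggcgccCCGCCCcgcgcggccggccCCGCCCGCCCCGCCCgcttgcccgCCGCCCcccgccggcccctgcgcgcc
Kdm2b, chr5:122989100-122989349, minus strand: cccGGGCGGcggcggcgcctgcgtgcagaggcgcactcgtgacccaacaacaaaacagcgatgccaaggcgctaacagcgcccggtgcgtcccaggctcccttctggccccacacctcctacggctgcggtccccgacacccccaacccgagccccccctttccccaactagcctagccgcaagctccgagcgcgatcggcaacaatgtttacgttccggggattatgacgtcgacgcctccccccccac
Kdm2b, chr5:122900351-122900600, minus strand: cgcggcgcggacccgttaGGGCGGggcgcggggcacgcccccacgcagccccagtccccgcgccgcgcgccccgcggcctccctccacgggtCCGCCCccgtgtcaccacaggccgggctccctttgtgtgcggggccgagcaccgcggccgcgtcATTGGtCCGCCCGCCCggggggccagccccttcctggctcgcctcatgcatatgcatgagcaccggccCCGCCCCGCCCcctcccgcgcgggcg
Setd8, chr5:124439680-124439929, plus strand: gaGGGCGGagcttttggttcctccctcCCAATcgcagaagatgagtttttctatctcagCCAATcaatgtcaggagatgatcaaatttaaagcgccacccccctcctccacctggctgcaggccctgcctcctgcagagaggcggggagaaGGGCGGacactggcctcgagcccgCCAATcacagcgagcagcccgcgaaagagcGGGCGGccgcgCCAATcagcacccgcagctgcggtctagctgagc
The sequence of Kmt2c had a GC content of 91.6% and 12 GC boxes. The printed outer and inner sequences of Kdm2b had 68.0% and 80.8% and held 1 and 7 matches. Its other outer and inner sequences had 58.4% and 78.0% and held 0 and 6. The printed sequence of Setd8, that of its 3 starts with most matches, had 7, 4 of them CCAAT boxes, and the other starts had 4 and 3.

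Promoter sequence was available for 40 of the 54 genes, with 53 starts in all, by gene ID. Of these 53, 38 held a GC box (71.7%), against 32.7% of 32851 promoters in the table. A CCAAT box was present in 22 (41.5%, against 33.8%), an ETS core in 7 (13.2%, against 6.91%), an E-box in 5 (9.43%, against 6.02%) and a TATA box in 1 (1.89%, against 12.4%). The median ratio of observed to expected CpG was 0.834 for the family and 0.374 for all promoters, and the median GC content was 65.6% and 52.4%. The promoters of the family thus held CpG and GC boxes more often than the table as a whole, and TATA boxes less often, as a description with no test. Sequences of neighbouring starts can overlap, as in Kdm2b, Prmt8 and Setd3, and each was counted. The comparison set covers 27025 genes, whether or not they were measured here. Promoters of the measured genes alone were not set beside the family.

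The H3 lysine 4 methyltransferases divided by gene rather than moving together. Calls were made for 2 of the 8 genes listed in this class, both lower, and the class median was -0.09. Among all genes measured, 4.02% were called lower. The list counts Kmt2e as such an enzyme, and enzyme activity was not measured. Besides Setd1b and Kmt2c, 2 genes had intervals below 1. Setd1a, a close paralogue of Setd1b that serves the same kind of complex, had 1350 Pc4-OE and 1664 control counts (-0.29, -0.40 to -0.19), and Kmt2b, which acts at bivalent promoters, had 1804 Pc4-OE and 1963 control counts (-0.11, -0.21 to -0.02). Of the exon length of Setd1a, 53.7% is shared with exons of other annotated genes, so its counts are uncertain. Kmt2d, the enhancer enzyme most like Kmt2c, had 1884 Pc4-OE and 1973 control counts (-0.06), and Kmt2a, the homologue of fly trithorax, had 2257 Pc4-OE and 2174 control counts (0.06). With library totals the interval of Kmt2b included 1 (-0.16 to 0.02) and that of Kmt2a lay above it (0.02 to 0.19). Setd7, which also methylates many non-histone proteins, had 593 Pc4-OE and 516 control counts (0.21, 0.04 to 0.38), the highest ratio of the class. Per exon length, Setd1b was the lowest member of the whole family in the library labelled Pc4-OE, at 2.50 CPM per kb against 6.47 in the library labelled control.

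Most H3 lysine 9 methyltransferases had ratios moderately below 1. None of the 6 was called, 5 lay below 1, 4 of them with an interval below 1, and the class median was -0.42 on the log2 scale. Of all genes measured, 50.7% lay below 1, and of those with at least 100 counts 38.0% had an interval below 1. Suv39h2, which with Suv39h1 trimethylates pericentric heterochromatin, had 217 counts in the library labelled Pc4-OE against 372 in the library labelled control (-0.77, -1.02 to -0.52). Its partner Suv39h1 had 524 Pc4-OE and 498 control counts (0.08). Exons of another annotated gene cover 11.1% of the exon length of Suv39h1. The subunits of the dimer that dimethylates lysine 9, Ehmt2 (G9a) and Ehmt1 (GLP), were both lower, with 1917 Pc4-OE and 2864 control counts (-0.57, -0.65 to -0.49) for Ehmt2 and 920 Pc4-OE and 1265 control counts (-0.45, -0.57 to -0.33) for Ehmt1. Setdb1, which silences endogenous retroviruses in stem cells, had 1410 Pc4-OE and 1869 control counts (-0.40), and Setdb2 192 Pc4-OE and 225 control counts (-0.22).

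The H3 lysine 36 enzymes ran in both directions, and none of the 5 intervals included 1. Among all genes with at least 100 counts, 3466 of 11637 intervals included 1. Whsc1 was called lower. Setd2, which trimethylates lysine 36 behind RNA polymerase II, had 1713 counts in the library labelled Pc4-OE against 2668 in the library labelled control (-0.63, -0.72 to -0.54). Nsd1, which dimethylates lysine 36, had 3223 Pc4-OE and 4466 control counts (-0.46, -0.53 to -0.40). The other 2 were higher: Ash1l with 857 Pc4-OE and 750 control counts (0.20, 0.06 to 0.34), and Whsc1l1, also called Nsd3, with 1099 Pc4-OE and 772 control counts (0.52, 0.38 to 0.65). Whsc1 and Whsc1l1, both of the NSD family, therefore changed places in count: Whsc1 was the less counted of the pair in the library labelled Pc4-OE and the more counted in the library labelled control.

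The lysine 79 enzyme Dot1l had 1320 Pc4-OE and 1372 control counts (-0.05, -0.16 to 0.06). On lysine 20 of H4, the enzyme that adds the first methyl group, Setd8, was lower and Suv420h2, also called Kmt5c, which adds further ones, was higher. Suv420h2 had 1211 counts in the library labelled Pc4-OE against 817 in the library labelled control (0.58, 0.45 to 0.71), the highest ratio of the family, and 38 of its 40 nearest genes lay below it. Suv420h1, also called Kmt5b, had 476 Pc4-OE and 523 control counts (-0.13, -0.31 to 0.05). Per exon length, Suv420h2 stood at 41.4 CPM per kb in the library labelled Pc4-OE, above Setd8 at 26.9, while in the library labelled control it stood at 27.8, below Setd8 at 39.4.

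Of 8 other SET-domain enzymes, 0 were called and the median log2 ratio was -0.05, with 6 below 1 (4 with library totals, where Setd3 and Setd6 lay at 0.01). The lower ones of these 8 were Smyd proteins, and among all genes measured 50.7% had a ratio below 1. Smyd4 had 201 counts in the library labelled Pc4-OE against 342 in the library labelled control (-0.76, -1.02 to -0.50), Smyd5 had 1034 Pc4-OE and 1503 control counts (-0.53, -0.65 to -0.42), and Smyd2, which methylates p53, had 352 Pc4-OE and 449 control counts (-0.34, -0.55 to -0.14). Exons of other annotated genes cover 39.2% of the exon length of Smyd2. Intervals of the other 5 included 1. They were Setd3, which methylates a histidine of actin (951 Pc4-OE and 978 control counts), Setd6, which methylates the NF-kappaB subunit RelA (503 Pc4-OE and 518 control counts), the well counted Setd5 (3689 Pc4-OE and 3878 control counts), Smyd3 (282 Pc4-OE and 280 control counts) and Setd4 (189 Pc4-OE and 178 control counts).

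The arginine methyltransferases had a median log2 ratio of -0.40, with 0 of 9 called and 8 of 9 below 1 (7 with library totals, where Prmt7 lay at 0.01). The intervals of 7 lay below 1. Among all genes measured, 4.02% were called lower and 50.7% had a ratio below 1. Of genes with at least 100 counts, 38.0% had an interval below 1. Prmt1, which makes most of the asymmetric dimethylarginine of a cell, had 2297 counts in the library labelled Pc4-OE against 4072 in the library labelled control (-0.82, -0.89 to -0.74). Prmt3, which methylates a ribosomal protein, had 531 Pc4-OE and 897 control counts (-0.75, -0.91 to -0.59). Prmt6, which methylates arginine 2 of H3, had 162 Pc4-OE and 292 control counts (-0.84, -1.13 to -0.56). Prmt8, a membrane-bound relative of Prmt1, had 96 Pc4-OE and 168 control counts (-0.80), so these 4 genes lay between -0.84 and -0.75 on 3 chromosomes.

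These 4 were grouped for their low ratios, so their ranks among neighbours are likewise only a description. None of the 40 nearest genes lay below Prmt1 or Prmt6, 1 of 40 lay below Prmt3 and 2 of 40 below Prmt8. The medians of these neighbourhoods were near 0, from -0.13 for Prmt3 to 0.02 for Prmt1. The remaining type I enzymes differed less: Carm1, which methylates H3 and splicing factors, had 1096 Pc4-OE and 1454 control counts (-0.40), and Prmt2 had 212 Pc4-OE and 157 control counts (0.44, 0.14 to 0.75), the only arginine methyltransferase with an interval above 1. Prmt5, the main enzyme of symmetric dimethylation, had 1954 Pc4-OE and 2351 control counts (-0.26), Prmt10, also called Prmt9, 384 Pc4-OE and 452 control counts (-0.23), and Prmt7, which makes monomethylarginine, 1181 Pc4-OE and 1217 control counts (-0.03). Exons of other genes cover 23.9% of the exon length of Carm1 and 23.5% of that of Prmt6.

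Prmt1 was also the most abundant gene of the family per exon length in both libraries, at 97.5 CPM per kb in the library labelled Pc4-OE and 171.7 in the library labelled control. Summed over the 9 arginine methyltransferases, levels per exon length were 278.8 CPM per kb for Pc4-OE and 396.7 for control. The upstream sequences of Prmt1 and Prmt3 are shown as the best counted of the 4 genes with like ratios, in the form described above.
Prmt1, chr7:44986421-44986670, minus strand: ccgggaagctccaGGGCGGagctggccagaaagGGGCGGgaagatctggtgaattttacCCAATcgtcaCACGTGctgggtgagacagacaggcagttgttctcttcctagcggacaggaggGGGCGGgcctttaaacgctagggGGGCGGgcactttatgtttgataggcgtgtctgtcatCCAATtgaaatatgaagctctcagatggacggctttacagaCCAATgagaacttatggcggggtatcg
Prmt3, chr7:49778108-49778357, plus strand: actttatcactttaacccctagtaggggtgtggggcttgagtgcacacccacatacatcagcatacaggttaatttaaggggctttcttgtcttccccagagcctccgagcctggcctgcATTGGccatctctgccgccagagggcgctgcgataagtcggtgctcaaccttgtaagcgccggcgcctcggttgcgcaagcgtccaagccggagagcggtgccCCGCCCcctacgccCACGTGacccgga
Both hold at least 1 E-box, GC box and CCAAT box, and no match of 1 motif is at the same distance from the start in both. The sequence of Prmt6, not printed, held 0 of the searched motifs.

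**Figure D3:**
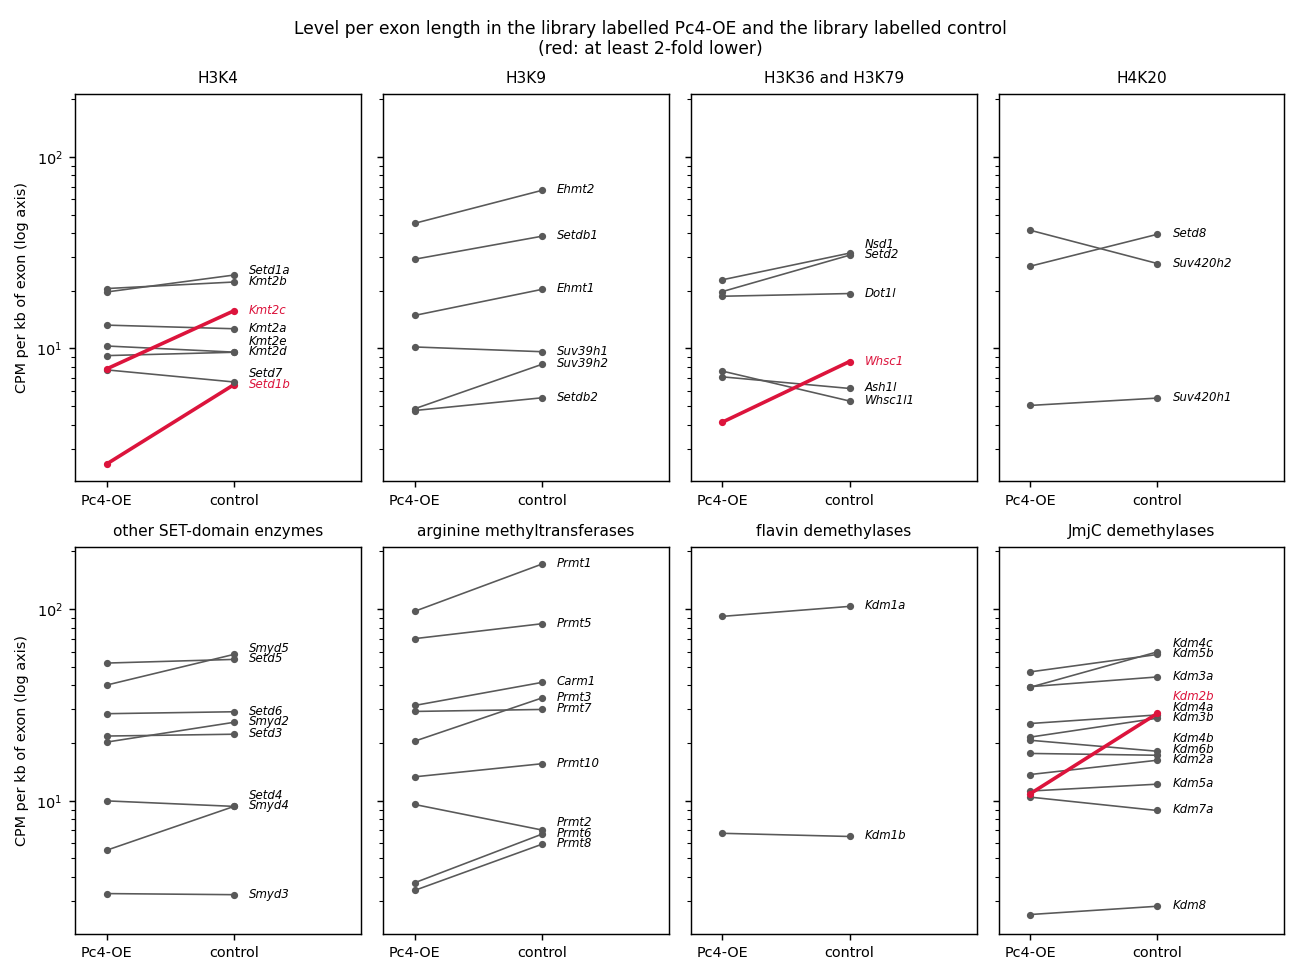
CPM per kb of exon is plotted on a log axis for each gene, with the library labelled Pc4-OE at the left and the library labelled control at the right, in panels by class. Red lines are the 4 called genes. Prmt1 is the highest gene in both libraries (97.5 for Pc4-OE and 171.7 for control), and Setd8 and Suv420h2 cross.

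The flavin demethylases differed little. Kdm1a (LSD1), which removes methyl groups from H3 lysine 4 as part of the CoREST complex, had 2912 counts in the library labelled Pc4-OE against 3303 in the library labelled control (-0.17, -0.25 to -0.10), and Kdm1b, known for its role in oocytes, had 349 Pc4-OE and 338 control counts (0.05, -0.16 to 0.28). Per exon length Kdm1a was the second most abundant gene of the family in both libraries, at 91.7 CPM per kb for Pc4-OE and 103.4 for control.

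Of 12 JmjC demethylases, 1 was called, Kdm2b, against 4.02% of all genes measured that were lower. A ratio below 1 was found for 9 of the 12, against 50.7% of all genes measured. The class median was -0.16 on the log2 scale. Kdm4c, which acts on H3 lysine 9 and lysine 36, was the next lowest, with 1758 counts in the library labelled Pc4-OE against 2705 in the library labelled control (-0.61, -0.70 to -0.53). Kdm5b, a lysine 4 demethylase and the best counted member of the family, had 4480 Pc4-OE and 5554 control counts (-0.30, -0.36 to -0.24). Kdm3b, a lysine 9 demethylase, had 1545 Pc4-OE and 1951 control counts (-0.33), and its relative Kdm3a had 2042 Pc4-OE and 2309 control counts (-0.17). The other lower values were smaller: Kdm2a, the paralogue of Kdm2b, had 1378 Pc4-OE and 1646 control counts (-0.25), Kdm4a 1324 Pc4-OE and 1477 control counts (-0.15), Kdm5a 1273 Pc4-OE and 1391 control counts (-0.12) and Kdm8 63 Pc4-OE and 70 control counts (-0.14). Kdm6b, which removes the Polycomb mark from H3 lysine 27, had 1216 Pc4-OE and 1197 control counts (0.03, -0.08 to 0.15). Above it stood Kdm4b with 980 Pc4-OE and 864 control counts (0.19, 0.06 to 0.32) and Kdm7a with 1034 Pc4-OE and 886 control counts (0.23, 0.10 to 0.36).

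**Figure D4:**
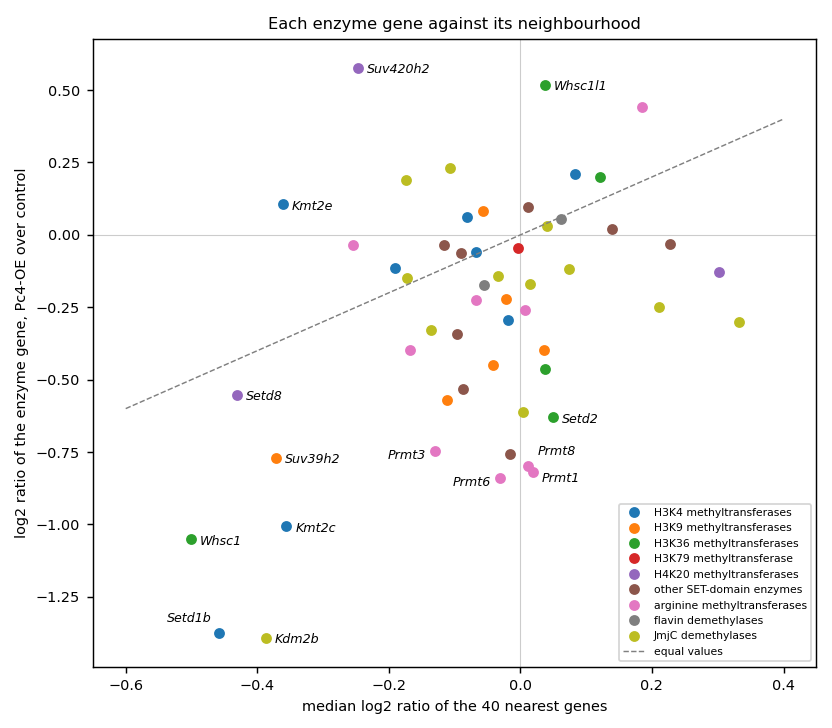
The log2 ratio of each of the 54 genes, Pc4-OE over control, is plotted against the median log2 ratio of the 40 nearest genes (24 for Suv39h2 and 26 for Suv420h1). Colours are classes and the dashed line marks equal values. Of the 54, 37 lie below their neighbourhood median, with Kdm2b, Prmt1 and Prmt6 below all of their 40 neighbours.

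Paralogues were then compared within each library, which does not depend on how the libraries were scaled. For 17 pairs, the Pc4-OE over control ratio of the first gene was divided by that of the second, and for 13 the exact interval of the quotient excluded 1. Intervals of single genes with at least 100 counts lay below 1 for 38.0% and above it for 32.2%. Quotients that part are therefore common at this depth, and the share among other gene pairs was not computed. The widest gap was between Whsc1 and Whsc1l1, whose quotient was 0.337 (interval 0.295 to 0.385): there were 0.604 Whsc1 counts for each Whsc1l1 count in the library labelled Pc4-OE and 1.79 in the library labelled control. The quotient of Kdm2a over Kdm2b was 2.21 (1.97 to 2.48), that of Setd1a over Setd1b 2.11 (1.78 to 2.51) and that of Kmt2c over Kmt2d 0.518 (0.472 to 0.570). In these 4 pairs the member on chromosome 5 was the one with the lower ratio. These members are the 4 called genes, picked for low ratios, so this follows largely from that choice and is only a description.

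Pairs with no member on chromosome 5 also parted. The quotient of Suv39h1 over Suv39h2 was 1.80 (1.46 to 2.23) and that of Suv420h1 over Suv420h2 0.614 (0.526 to 0.717). Kdm4a over Kdm4c gave 1.38 (1.25 to 1.52) and Prmt1 over Carm1 0.748 (0.681 to 0.823). For 4 pairs the interval included 1: Ehmt1 over Ehmt2, the subunits of a dimer (1.09, 0.979 to 1.21), Prmt1 over Prmt8 (0.987, 0.759 to 1.29), Setdb1 over Setdb2 (0.884, 0.717 to 1.09) and Kdm1a over Kdm1b (0.854, 0.727 to 1.003). The interval of Prmt1 over Prmt8 is wide because Prmt8 was thinly counted, and it leaves room for a gap of up to 1.32-fold in one direction and 1.29-fold in the other.

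**Figure D5:**
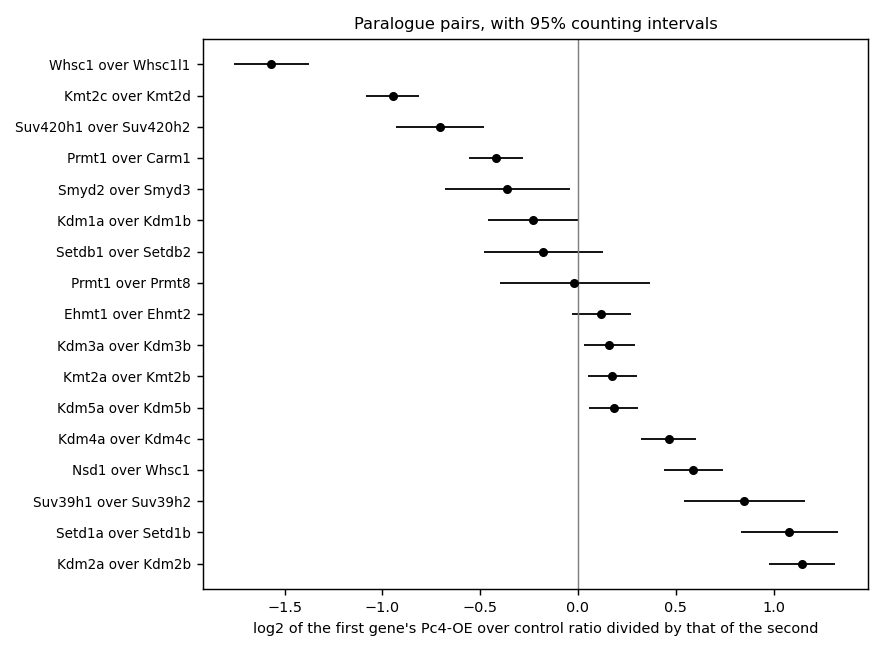
The log2 quotient of the Pc4-OE over control ratios of the first and second gene is plotted for 17 paralogue pairs, with exact 95% counting intervals. Whsc1 over Whsc1l1 (-1.57) and Kdm2a over Kdm2b (1.14) lie at the ends, and 4 intervals cross 0.

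Partners of the enzymes were counted from lists. Among all genes measured, 4.02% were called lower, 11.8% were called higher and 50.7% had a ratio below 1. The median log2 ratio of genes with at least 100 counts was -0.05. Of 12 genes for COMPASS core subunits and associated proteins, which hold the lysine 4 methyltransferases, 0 were called, and 11 had a ratio below 1, with a median log2 ratio of -0.36. Psip1, a chromatin reader that tethers Kmt2a, had 2354 counts in the library labelled Pc4-OE against 4135 in the library labelled control (-0.80, -0.88 to -0.73), Paxip1, a partner of Kmt2c and Kmt2d that also lies on chromosome 5, had 712 Pc4-OE and 1250 control counts (-0.80, -0.94 to -0.67), and Men1, menin, had 514 Pc4-OE and 820 control counts (-0.67, -0.83 to -0.50). Of 10 partners of lysine 9 methylation and heterochromatin, 0 were called and 8 were below 1 (median -0.31). Their intervals lay below 1 for 7 and above it for 1. Morc2a had 1269 Pc4-OE and 1982 control counts (-0.63). Zfp644, which lies on chromosome 5, had 402 Pc4-OE and 660 control counts (-0.71). Cbx5, heterochromatin protein 1 alpha, had 4298 Pc4-OE and 6426 control counts (-0.57). All 4 partners of Prmt5 were below 1 and 0 were called (median -0.43), among them Wdr77, its obligate cofactor, with 1557 Pc4-OE and 2151 control counts (-0.46).

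Other lists were less one-sided. Of 9 measured LSD1 and CoREST partners, Rcor3, a CoREST paralogue, was called higher on 166 Pc4-OE and 78 control counts (2.14-fold, 1.63 to 2.84) and 0 were lower, with a median log2 ratio of -0.20. Hmg20b, a DNA-binding subunit of the complex, had 494 Pc4-OE and 304 control counts (0.71, 0.50 to 0.92). Rcor2, the CoREST form abundant in stem cells, had 1078 Pc4-OE and 1650 control counts (-0.61). In the methyl donor cycle 0 of 8 genes were called (median -0.25). Mat2a, which makes S-adenosylmethionine, had 2094 Pc4-OE and 3624 control counts (-0.78, -0.86 to -0.70), and Ahcyl1, a relative of the hydrolase that clears its product, had 2561 Pc4-OE and 1813 control counts (0.51, 0.42 to 0.59). A further list held JmjC proteins whose symbols the rule does not match, set apart by symbol and not by activity. Of its 8 measured genes, Jarid2, a Polycomb cofactor without demethylase activity, was called lower on 2958 Pc4-OE and 6698 control counts (2.25-fold, 2.16 to 2.35). None was called higher, and the median was -0.09. Hr lay just short of a call on the higher side, with 113 Pc4-OE and 57 control counts (1.99-fold, 1.44 to 2.79). Of the 8 ratios, 4 lay below 1 and 4 above it, with 4 intervals below 1 and 3 above it.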

How the data were processed

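Poly(A) RNA of 2 mouse embryonic stem cell samples had been sequenced with a stranded mRNA kit, per the labels' protocols. The authors deposited 1 table of whole-number read counts per gene, unnormalized, with 1 column per library named by its sample title. The submitters' processing notes name STAR 2.4.1c, featureCounts and mm10. How strand and multiply mapped reads were handled, and with which annotation, is not given in the sources used here, so counts of overlapping genes and near-identical copies are uncertain. Exons of 23 of the 54 genes overlap those of another annotated gene, and for 7 the overlap exceeds 10% of the exon length.

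Counts were scaled by TMM (edgeR 4.0.16). Ratios have no pseudocount, and their exact Clopper-Pearson 95% intervals cover counting error only: with 100 counts shared evenly between equal libraries, the bounds are 0.662 and 1.51, and with 1000 they are 0.882 and 1.13. Paralogue quotients have exact conditional intervals (scipy 1.17.1). Exon lengths are merged exons of GENCODE M21 (basic set), and positions come from RefSeq (GRCm38.p6), the assembly that mm10 copies, matched by gene ID for 23977 rows. Ratios, intervals and calls were run on simulated counts that varied by counting error only, so the spread between cultures was not covered. The genes, classes, partner lists, pairs and alternatives were chosen with earlier results of these data known. Any gene of the family could be named. Intervals are given for called genes and for up to 3 genes per class whose interval stands farthest from 1, and further ones were picked after the values were seen. Partner lists name up to 3 genes by the same measure.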

Additional observations from a re-analysis of the deposited data

How the results depend on the processing

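With 1 library per group, the spread between cultures is not known, and counting error is the only error measured. The count of genes at least 2-fold lower was 4 with TMM, with DESeq2 size factors (DESeq2 1.42.0), with 0.5 CPM added, with a minimum of 100 counts and with no minimum, and 3 with library totals. It was 2 relative to chromosome medians, 1 relative to the 40 nearest genes (chosen after seeing the data) and 0 without chromosomes 5 and 15. A minimum of 100 counts left the same 54 genes. No minimum added only Smyd1 and Kdm4d, whose intervals include 1, so neither of these settings could change the 4. Leaving out chromosome 5 removed all 4 called genes, so the 0 was fixed in advance. The count at least 2-fold higher was 0 under all of the settings named. A ratio below 1 was found for 40 of 54 genes with TMM and 38 of 54 relative to chromosome medians. It was found for 37 of 54 with library totals and again relative to the 40 nearest genes. Settings with another set of genes gave 34 of 47 (without chromosomes 5 and 15) and 42 of 56 (no minimum). The median log2 ratio ran from -0.22 to -0.13. With library totals, intervals lay below 1 for 27 genes and above it for 9, against 31 and 7 with TMM: those of Kmt2b, Prmt10, Kdm4a and Kdm5a came to include 1, and those of Kmt2a and Kmt2e came to lie above it. The sign of the log2 ratio changed for 3 of 54 genes with library totals, 4 relative to chromosome medians and 9 relative to the nearest genes, none of them a called gene. Adding 0.5 counts kept all 17 paralogue quotients within their intervals. That was all but fixed in advance, since the smallest count in any pair was 96 (Prmt8, Pc4-OE). No paired analysis was possible because each group has 1 library.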
